A study of Mus musculus with 2 samples.

Results

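Mature enterocytes that carried the messages of chylomicron apolipoproteins made up 388 of 7784 cells that passed the cell filters in 2 single-cell libraries of mouse duodenal crypts. They were chosen by their expression: the UMIs (unique molecular identifiers, each 1 captured RNA molecule) of Apoa1, Apoa4 and Apoc3 together had to reach 0.2% of a cell's UMIs. Clca1, Zg16 and Fcgbp, which mark goblet cells, had to stay under 0.5%, and the Paneth cell genes Lyz1 and Defa24 under 2%. Fewer than 5 UMIs of the enteroendocrine genes Chga and Chgb and no UMI of the leukocyte gene Ptprc were allowed. A barcode passed the cell filters with at least 500 genes and at most 25% mitochondrial UMIs. Of the 412 cells with the apolipoprotein share, 24 were left out by the markers of other cells: 6 by goblet genes, 2 by Paneth genes, 2 by enteroendocrine genes and 14 by Ptprc.

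The study compared mouse crypts labelled NT with crypts labelled ES; the labels do not spell out either term and give no strain, age or sex. Crypts were released from the duodenum with EDTA and passed through a mesh to separate them from villi, so villus cells were not what the preparation aimed for. Cells of 5 animals were pooled per condition, which leaves 1 library per condition and no animal-level spread. The deposited count matrix holds both libraries in 1 table, with barcodes that end in 1 or 2; nothing ties either ending to NT or ES, so the libraries are called library 1 and library 2, no direction between NT and ES is given, and no test was possible. Every interval below is a 95% interval that covers counting error only.

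Enterocytes are the absorptive cells of the villus. They split fat, sugar and peptides at the brush border, rebuild triglycerides inside the cell, load them with Mttp onto Apob and export them as chylomicrons that carry Apoa1, Apoa4 and Apoc3. Cells are born in the crypt and change their expression as they move up the villus, from antimicrobial and amino acid genes near the base toward sugar, peptide and then lipid handling higher up. HNF4 and GATA factors are known regulators of enterocyte genes.

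Of 9 genes of these cells with a promoter entry, the 4 whose window held at least 1 of the motifs searched are shown, chosen after the search: the retinol carrier Rbp2, the fatty acid carrier Fabp1, lactase Lct and the drug-metabolising enzyme Cyp3a11. Each is the 250 bases before the RefSeq start in GRCm38.p6, read 5′ to 3′ on the gene's strand. Capitals mark matches on either strand to 3 motifs: CAAAGTCC of the HNF4 type, the nuclear receptor core AGGTCA, and the GATA motif AGATAA.
Rbp2, chr9:98490287-98490536, plus strand: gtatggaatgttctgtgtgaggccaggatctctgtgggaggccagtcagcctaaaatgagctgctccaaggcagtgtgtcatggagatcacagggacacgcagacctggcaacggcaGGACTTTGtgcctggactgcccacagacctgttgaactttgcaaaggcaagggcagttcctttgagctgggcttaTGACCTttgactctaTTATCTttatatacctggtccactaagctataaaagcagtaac
Fabp1, chr6:71199629-71199878, plus strand: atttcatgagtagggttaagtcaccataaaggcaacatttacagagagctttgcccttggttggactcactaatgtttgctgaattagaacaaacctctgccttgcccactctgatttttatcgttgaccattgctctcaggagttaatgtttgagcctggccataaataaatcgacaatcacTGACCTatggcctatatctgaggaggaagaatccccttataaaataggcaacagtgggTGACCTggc
Lct, chr1:128328319-128328568, minus strand: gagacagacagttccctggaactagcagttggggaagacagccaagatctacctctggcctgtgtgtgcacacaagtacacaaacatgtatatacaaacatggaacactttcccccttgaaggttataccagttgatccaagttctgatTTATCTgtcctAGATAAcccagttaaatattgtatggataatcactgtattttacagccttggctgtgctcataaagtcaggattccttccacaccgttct
Cyp3a11, chr5:145879855-145880104, minus strand: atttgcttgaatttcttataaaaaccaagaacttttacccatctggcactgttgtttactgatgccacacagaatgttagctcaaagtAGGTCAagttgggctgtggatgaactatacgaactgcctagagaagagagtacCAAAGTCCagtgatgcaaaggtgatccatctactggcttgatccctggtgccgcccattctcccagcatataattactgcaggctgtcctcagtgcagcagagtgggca
CAAAGTCC lay in the Rbp2 window, 133 bases before the start, and in that of Cyp3a11, 109 bases before it; 393 of 32851 promoters of the same length (1.20%) held it. AGGTCA occurred once in Rbp2 and in Cyp3a11 and 2 times in Fabp1, against 14.0% of all promoters with at least 1. AGATAA occurred 2 times in Lct and once in Rbp2, against 9.99%. No motif of the 3 was found in the same window of Apoa1, Apoa4, Fabp2, Apob or Mttp; Apoc3 has no entry. The matches are letters in a window and were not tied to any measured binding.

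Library 1 held 162 of these enterocytes, 3.99% of its 4057 filtered cells (exact Clopper-Pearson interval 3.41 to 4.64%). Library 2 held 226, or 6.06% of 3727 cells (5.32 to 6.88%). The share was thus larger in library 2 by more than counting error, although the same genes chose the cells. Depth was alike, with a median of 12443.5 UMIs and 3367 genes per cell in library 1 and 12008.5 UMIs and 3413 genes in library 2. Mitochondrial UMIs had medians of 13.5% and 13.7%. Over all barcodes, 40 barcode sequences occurred in both libraries, and 1 of the 388 cells carried such a sequence.

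The apolipoprotein share ran on across the threshold without a gap. Its median was 0.411% of UMIs in library 1, with a highest value of 1.37%, and 0.567% in library 2, with a highest value of 3.37%. Just inside the threshold, at 0.2 to under 0.3%, lay 45 and 58 cells in libraries 1 and 2; just outside, at 0.1 to under 0.2%, lay 122 and 141. Cells at 1% and over numbered 7 in library 1 and 36 in library 2.

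**Figure D1:**
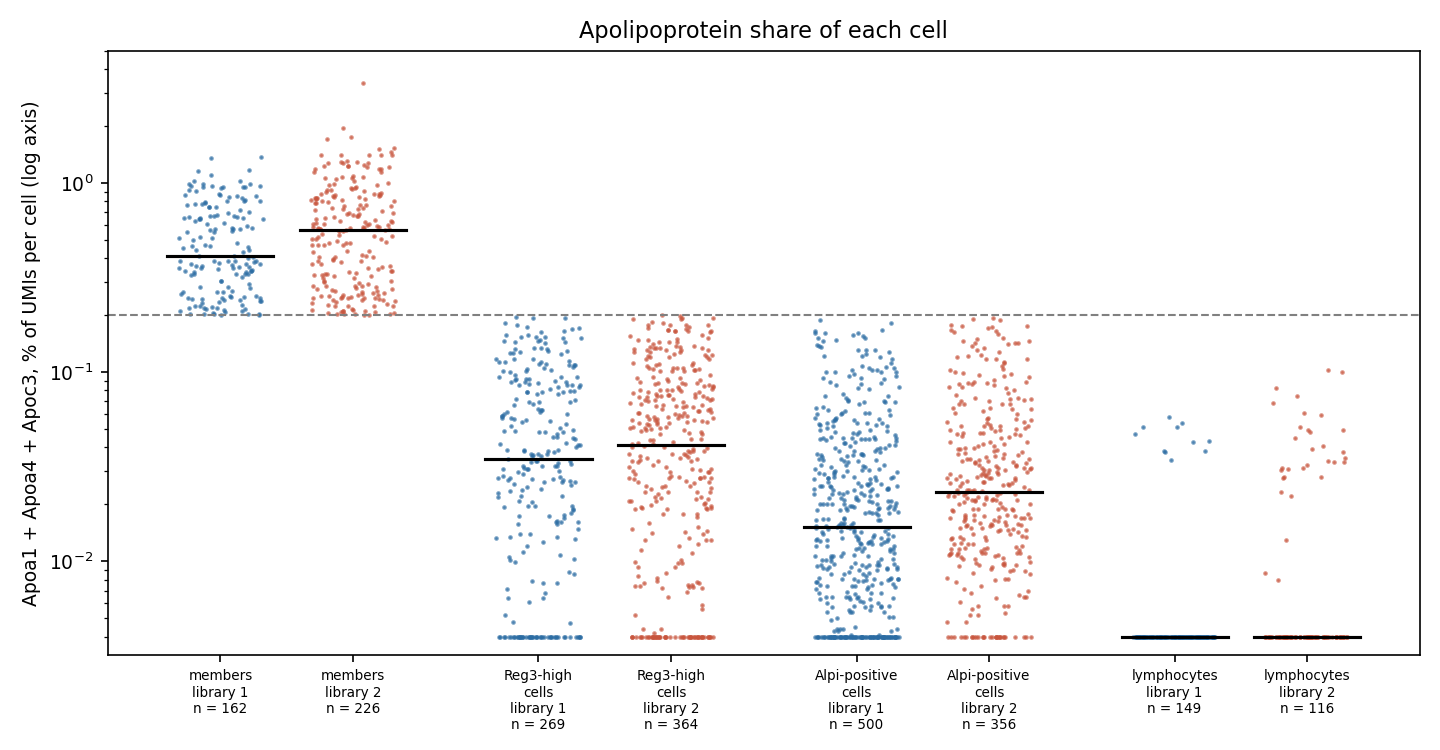
Share of Apoa1, Apoa4 and Apoc3 in the UMIs of each cell (log axis) for the mature enterocytes (members), Reg3-high cells, Alpi-positive cells and lymphocytes of each library; points are cells, black lines medians, the dashed line the 0.2% threshold, and points on the bottom row had 0 UMIs or a share too low for the axis. Members run from the threshold to 1.37% in library 1 and to 1.96% in library 2, where 1 further cell lies at 3.37%.

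Reference classes were set beside the mature enterocytes. All but the lymphocytes were under 0.2% of apolipoprotein UMIs and within the same limits on markers of other cells. Reg3-high cells (269 and 364 in libraries 1 and 2) had at least 0.5% of UMIs from the antimicrobial lectins Reg3b and Reg3g; Alpi-positive cells (500 and 356) had at least 3 UMIs of intestinal alkaline phosphatase Alpi and less Reg3; the remaining cells numbered 2040 and 1524. Lymphocytes (149 and 116) had Ptprc and Cd3g, Cd3e or Trdc, no UMI of Epcam and under 2 UMIs of Vil1. They should lack enterocyte messages and serve as a guide to free RNA. The limits on the epithelial genes Epcam and Vil1 can make their level of free enterocyte RNA too low. Levels are CPM, the UMIs of a gene per 1000000 UMIs summed over the cells of a class. Genes named below follow a rule of level and size given with the processing, and further list members are named as examples of a count, chosen after their values were seen.

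Apoa1, the main apolipoprotein of high-density particles, reached 4192 CPM in library 1 and 4617 CPM in library 2, against 22.5 and 83.0 CPM in lymphocytes. Apoa4, made on fat absorption, stood at 367 and 292 CPM, and Apoc3, an inhibitor of lipoprotein lipase, at 727 and 758 CPM. These 3 genes chose the cells and are neighbours on chromosome 9 of GENCODE M21 (mm10): Apoa1 (ENSMUSG00000032083) at chr9:46228580-46230466, Apoc3 at chr9:46232933-46235636 and Apoa4 at chr9:46240696-46243459. Lactase Lct, which the rule did not use, stood at 530 and 594 CPM, against 59.5 and 48.1 CPM in Reg3-high cells. Rbp2 stood at 3462 and 3077 CPM, against 647 and 578 CPM. The level of Cyp3a11 was 715 CPM in library 1 and 265 CPM in library 2, against 8.57 and 5.38 CPM in Reg3-high cells. Of the 5 markers given for the cell type, Apoa1 and Apoa4 were set by the selection, and Lct, Cyp3a11 and Rbp2, which the rule did not use, were higher than in Reg3-high cells in both libraries; this is a description of chosen cells.

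Not every cell showed each marker. When cells were thinned to 2000 UMIs (142 and 203 cells were deep enough), Apoa1 was seen in 100% and 99.5% of cells and Rbp2 in 97.9% and 95.1%. Lct was seen in 56.3% and 61.1%, Apoa4 in 44.4% and 36.5%, and Cyp3a11 in 43.7% and 29.1%. In lymphocytes at the same depth, Lct was seen in 0% and 3.2% and Cyp3a11 in 3.8% and 1.1%. The unthinned shares in the enterocytes were 74.1% and 85.8% for Lct.

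The machinery of fat absorption was well expressed. Fabp2 and Fabp1, the intestinal and liver-type fatty acid carriers, stood at 6181 and 6099 CPM and at 5156 and 4194 CPM. Mttp reached 2386 and 2582 CPM and Apob 1713 and 1468 CPM. Acsl5, which activates fatty acids, stood at 1251 and 1427 CPM, and Dgat1, which makes triglyceride, at 798 and 877 CPM. The ileal bile acid genes were near 0, with 0 and 1 UMI of the carrier Fabp6 and 3 and 4 UMIs of the transporter Slc10a2, in cells labelled as duodenal. Some genes known from the villus tip were low: Ada, adenosine deaminase, had 2 and 28 UMIs and Nt5e, a nucleotidase, 0 and 1 UMI. Other members of the tip list were abundant, such as the keratin Krt20 at 1280 and 1496 CPM. The absorptive genes thus fit the label, while Ada and Nt5e were low.

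**Figure D2:**
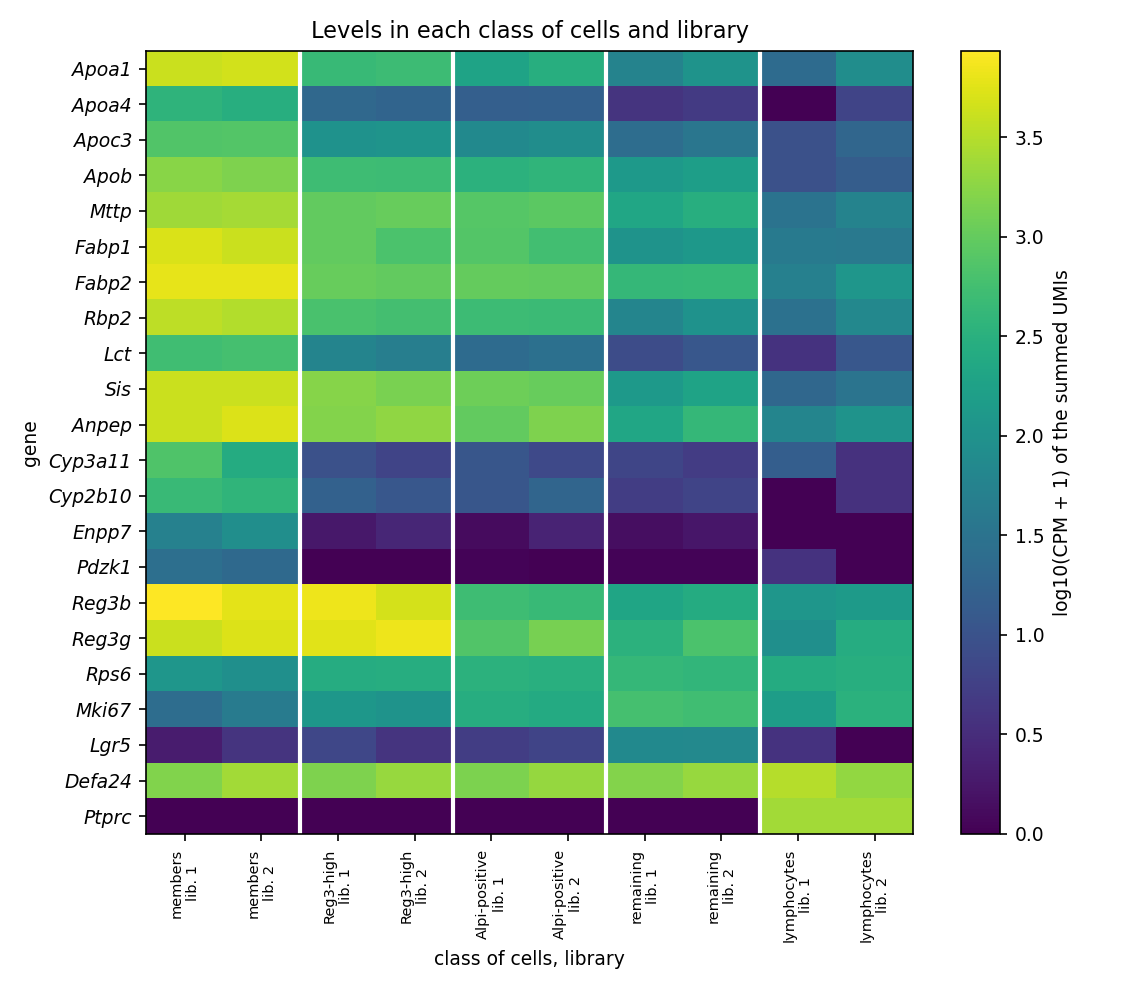
Level of 22 genes as log10(CPM + 1) of the summed UMIs (colour) in 5 classes of cells and both libraries. Apolipoprotein, brush border and Cyp genes were highest in members, with Apoa1 at 4192 and 4617 CPM, while the Paneth gene Defa24 was found in every class.

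Set beside Reg3-high cells, the mature enterocytes had more of the digestive and detoxifying program and less of the growth program. A gene was called when its CPM differed at least 2-fold the same way in both libraries, among genes with 50 or more UMIs in each; 308 of 7957 genes (3.87%) were called higher and 429 (5.39%) lower. Because expression chose the cells, these counts are a description. Of the sugar list, 10 of 14 genes were called higher, among them the glucose transporter Slc2a2 at 442 and 439 CPM against 23.6 and 23.5 CPM, and sucrase-isomaltase Sis at 4133 and 4177 CPM against 1632 and 1384 CPM. Of the peptide list, 10 of 13 were called higher, including aminopeptidase N, Anpep, at 4123 and 5340 CPM against 1581 and 1900 CPM. The peptide transporter Slc15a1 stood at 137 and 174 CPM against 28.8 and 28.0 CPM. Median log2 ratios were 1.53 and 1.77 for the sugar list and 1.30 and 1.49 for the peptide list.

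Fat handling moved less evenly. In the apolipoprotein and assembly list, 5 of 13 genes were called higher, and 3 of these were used by the rule; the other two were Apob, 3.38-fold and 2.92-fold, and Mttp, 2.41-fold and 2.49-fold. In the uptake list 5 of 9 were called higher and 1 lower. The higher ones were Cd36, a fatty acid translocase, Slc27a4, a fatty acid transporter, Fabp1, Fabp2 and Acsl5, and the lower one was Acsl3, which activates fatty acids, at 5.52 and 6.51 CPM against 17.7 and 19.2 CPM. Only 2 of 14 triglyceride synthesis genes were called, Mogat2 at 2.54-fold and 2.31-fold and Dgat2 at 3.17-fold and 3.38-fold. Dgat1 was 1.46-fold and 1.66-fold higher and fell short of the rule.

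Xenobiotic metabolism was the third group, with 14 of 29 genes called higher and none lower. Cyp3a11 had an 83.4-fold ratio in library 1 (interval 59.1 to 122) and a 49.2-fold ratio in library 2 (34.2 to 73.4). Cyp2b10, another drug-metabolising P450, was 28.9-fold and 34.8-fold higher. Cyp1a1, an aryl hydrocarbon receptor target, rested on 3 and 4 UMIs in Reg3-high cells and had ratios of 51.5 (17.0 to 255) and 71.7 (27.4 to 266). Enpp7, the brush border sphingomyelinase, had ratios of 66.4 (22.1 to 327) and 54.6 (28.4 to 121), on 3 and 9 UMIs in Reg3-high cells. Pdzk1, a scaffold for brush border transporters, had no UMI there, so its level was at least 33.5-fold and 39.9-fold higher, set against a floor of 3 counts per library.

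Of 25 transcription factors compared with Reg3-high cells by the same rule, 4 were called higher and 2 lower. Their median log2 ratios were -0.11 and -0.08 in libraries 1 and 2, against -0.23 and -0.22 over all genes compared. Maf stood at 401 and 413 CPM against 190 and 188 CPM and was called higher. Creb3l3, a regulator of lipid genes, and Klf4 were called higher as well. Hes1, a Notch target, stood at 65.8 and 56.0 CPM against 182 and 149 CPM, and was called lower, as was Nr5a2. Hnf4a, at 275 and 310 CPM against 364 and 416 CPM, was not called.

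The lower side was led by proliferation and translation. Against Reg3-high cells, 9 of 16 cell cycle genes and 11 of 16 cytoplasmic ribosomal protein genes were called lower and none higher; median log2 ratios of the ribosomal list were -1.15 and -1.14. The proliferation gene Mki67 stood at 24.6 and 42.3 CPM against 119 and 104 CPM. Rps6, a ribosomal protein, stood at 116 and 89.2 CPM against 270 and 278 CPM. Against Alpi-positive cells, 441 of 9097 genes (4.85%) were called higher and 1246 (13.7%) lower. There 12 of 13 peptide, 10 of 14 sugar and 17 of 29 xenobiotic genes were called higher, and 1 xenobiotic gene lower. Called lower were 17 of 18 cell cycle genes, 14 of 16 ribosomal genes and 7 of 11 stem cell markers. The stem cell gene Lgr5 had 2 and 9 UMIs in all mature enterocytes.

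Within the enterocytes, cells at 0.5% and over (70 and 125) were set beside cells at 0.2 to under 0.5% (92 and 101), by the same 2-fold rule in both libraries. Of 4922 genes, 64 (1.3%) were called higher and 64 (1.3%) lower. Called higher were 3 of 14 sugar, 2 of 13 peptide and 3 of 27 xenobiotic genes, and of the cell cycle list 0 of 4 were called either way. Cyp3a11 stood at 215 CPM below and 1303 CPM above the 0.5% line in library 1, and at 50.4 and 500.2 CPM in library 2. Enpp7 was 8.13-fold and 13.1-fold higher, Pdzk1 9.01-fold and 6.14-fold, and Pck1, a gluconeogenic enzyme, 4.79-fold and 4.18-fold. Selenop, a selenium carrier, was 5.17-fold and 4.16-fold higher. Acot12, an acyl-CoA thioesterase, was 6.17-fold and 5.00-fold higher, Bst1 6.82-fold and 4.71-fold, and the carbonic anhydrase Car2 4.66-fold and 5.10-fold. The sugar genes called higher were Lct, 2.47-fold and 2.64-fold, trehalase Treh, 2.58-fold and 2.88-fold, and Slc5a4b, 3.69-fold and 4.68-fold. Sis was 1.28-fold in library 1 and 0.94-fold in library 2, a smaller and less even difference than that of lactase.

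Of the cytoplasmic ribosomal protein genes, 11 of 16 were called lower at the high share, with a median log2 ratio of -1.11 in both libraries, against -0.11 and -0.13 over all genes compared. Rps6 was at 0.32-fold and 0.35-fold and Rpl5 at 0.41-fold and 0.38-fold. Bmp3, a secreted growth factor of the BMP family, was at 0.16-fold and 0.23-fold. Hes1 was at 0.41-fold and 0.42-fold, and Krt19, a keratin, at 0.43-fold and 0.38-fold. Depth and mitochondrial share moved with the same axis: median UMIs per cell were 16462, 10484 and 7319 over the 3 ranges of the share in library 2, and 12187, 12706 and 12363 in library 1. Mitochondrial UMIs had medians of 12.8%, 14.3% and 19.5% in library 1 and of 12.3%, 13.7% and 16.2% in library 2. Their part in these differences was not tested. With cells of at most 10% mitochondrial UMIs, 33 and 59 in number, 18 genes were called higher and 11 lower.

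**Figure D3:**
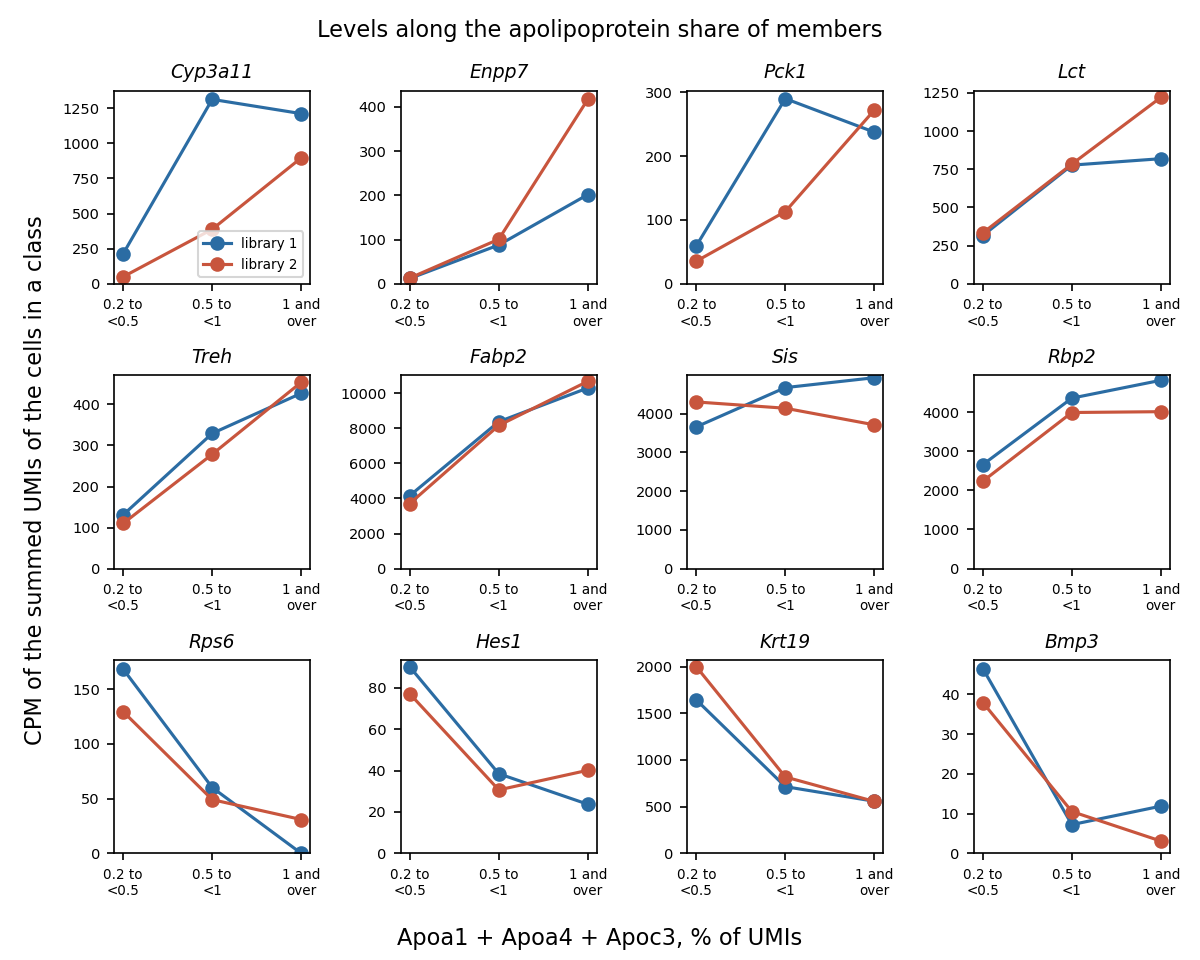
CPM of 12 genes in members with an apolipoprotein share of 0.2 to under 0.5%, 0.5 to under 1%, and 1% and over, for library 1 (blue, 92, 63 and 7 cells) and library 2 (red, 101, 89 and 36 cells); axes start at 0. Cyp3a11, Enpp7, Pck1, Lct, Treh and Fabp2 were higher at the high shares in both libraries, and Rps6, Hes1, Krt19 and Bmp3 lower.

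The antimicrobial lectins stood highest in variance divided by mean from cell to cell. This measure can rise with the level of a gene, so it does not rank variation among genes of unlike level. With cells thinned to 5000 UMIs (134 and 190 cells), the variance divided by the mean was taken for the 762 genes with a mean of at least 1 UMI; its median was 1.26 and 1.29, where counting error alone gives about 1. The genes named here were picked from that ranking after their values were seen. Reg3b had 62.1 and 60.6, Reg1, a lectin-like growth and defence protein, 38.2 and 24.9, and Reg3g 24.0 and 27.3. The 10th, 50th and 90th percentiles of Reg3b were 1, 19 and 118.6 UMIs in library 1 and 1, 15.5 and 86 in library 2. The corresponding values of Apoa1 were 9, 20 and 35.7 UMIs and 9, 23 and 45.1. Fabp2 had 12.6 and 17.8 and Cyp3a11 7.59 and 6.92, with a Cyp3a11 UMI in 59.0% and 45.3% of cells.

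High Reg3 and high apolipoprotein often occurred in the same cell. In library 1, 90 of the 162 cells (55.6%) and in library 2, 143 of 226 (63.3%) had at least 0.5% of UMIs from Reg3b and Reg3g. Below the apolipoprotein threshold, 269 and 364 cells met this cut. The 500 and 356 Alpi-positive and the 2040 and 1524 remaining cells did not. The mature enterocytes with high Reg3 had a median apolipoprotein share of 0.409% and 0.535%, against 0.422% and 0.576% in those with less Reg3. S100g, an intracellular calcium carrier of the duodenum, stood at 119 and 62.7 CPM in the cells with high Reg3 and at 574 and 244 CPM in those with less. Slc40a1, the iron exporter ferroportin, showed 39.7 and 35.6 CPM against 173 and 82.4 CPM. Car2 showed 43.3 and 45.1 CPM against 116 and 78.7 CPM. These genes of mineral and acid-base transport were picked from the split after their values were seen; 1 cell held 21.0% of the S100g UMIs in library 1 and another held 19.1% in library 2.

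Between libraries, genes of immune response were higher in library 2 and genes of detoxification lower. A gene was called apart when its ratio of library 2 to library 1 was at least 1.5 either way with an exact interval that left out 1, among 5684 genes with 100 or more UMIs over both. By this rule of size 258 genes (4.54%) were higher in library 2 and 94 (1.65%) lower. With all cells thinned to 2000 UMIs the counts were 46 and 47. By direction alone, 3356 of the 5684 genes were higher in library 2 and 2328 lower. Of the apolipoprotein and assembly list 0 of 13 genes were apart, 3 of which chose the cells, and 0 of 14 sugar and 0 of 13 peptide genes; at the shares of all genes given above, lists of this size hold few such genes, and nothing is read from these counts. Apoa1 had a ratio of 1.10, Apob 0.86, Mttp 1.08, Fabp2 0.99, Lct 1.12 and Sis 1.01.

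Interferon-stimulated genes formed the group with the highest median. Of 18 measured, all 18 were higher in library 2 and 17 were apart, with a median log2 ratio of 2.07 against 0.05 over all genes measured. Ifit1, which binds foreign RNA, stood at 20.1 and 177 CPM, a ratio of 8.82 (6.39 to 12.5), and Isg15, a ubiquitin-like modifier, at 14.6 and 100.6 CPM, 6.91 (4.71 to 10.5). Usp18, which removes Isg15, rested on 4 and 135 UMIs and had a ratio of 21.9 (8.35 to 81.4). The 2 exclusive ranges of the apolipoprotein share gave ratios for Ifit1 of 5.75 at 0.2 to under 0.5% and 8.78 at 0.5 to under 1%. In Reg3-high cells Ifit1 stood at 3.12 and 34.1 CPM, also higher in library 2. The summed level of the interferon list was 1072 and 3278 CPM in the enterocytes of libraries 1 and 2. It was also higher in library 2 in Reg3-high cells (511 and 1557 CPM), Alpi-positive cells (395 and 1311 CPM) and remaining cells (273 and 828 CPM). In lymphocytes, the guide to free RNA, it was 1098 and 2496 CPM. The part of free RNA in the difference was not tested.

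Antigen presentation followed. All 5 measured MHC class II genes were apart and higher in library 2, with a median log2 ratio of 1.67. The summed level of the list was 193 and 650 CPM in libraries 1 and 2. It was also higher in library 2 in Reg3-high cells (225 and 337 CPM), Alpi-positive cells (93.3 and 343 CPM) and remaining cells (281 and 644 CPM). Cd74, the invariant chain, stood at 50.7 and 250 CPM, a ratio of 4.94 (4.01 to 6.13), and was seen in 8.5% and 32.5% of cells thinned to 2000 UMIs, against 3.8% and 2.2% of lymphocytes. H2-Aa, an MHC class II chain, stood at 19.1 and 54.0 CPM with no UMI in lymphocytes. In the MHC class I list 12 of 13 were higher and 6 apart, including the peptide transporter Tap1 at 77.3 and 135 CPM. Duox2 and Nos2, which make hydrogen peroxide and nitric oxide, were apart as well, with ratios of 7.26 (4.28 to 13.3) and 7.56 (3.84 to 17.0) from 15 and 9 UMIs in library 1. Duox2 in library 2 was concentrated at the low apolipoprotein share, with 83.4 CPM at 0.2 to under 0.5% and 9.27 CPM at 1% and over.

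Of 11 measured genes of the cholesterol and sterol list, 8 were higher and 3 lower in library 2, with a median log2 ratio of 0.19. Over all 5684 genes measured, 3356 were higher and 2328 lower, so nothing is read from the split of the list. From the list, 4 genes were apart, all higher. Among these were Scd2, a fatty acid desaturase, with a ratio of 8.43 (4.69 to 16.7) from 12 UMIs in library 1, Sqle, a cholesterol synthesis enzyme, with 2.67 and Hmgcs1, another, with 1.63. The sterol absorption gene Npc1l1, with a ratio of 1.14, was not apart. Scd2 was scarcer in these enterocytes than in Reg3-high cells, at 6.02 and 50.8 CPM against 73.8 and 130 CPM.

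Xenobiotic genes lay on the other side. Of 27 measured, 26 were lower in library 2 and 8 were apart, with a median log2 ratio of -0.31. Cyp3a11 had a ratio of 0.37 (0.34 to 0.40), and at matched apolipoprotein shares the ratio was 0.23 at 0.2 to under 0.5% and 0.30 at 0.5 to under 1%. Gsta1, a glutathione transferase, stood at 623 and 282 CPM, a ratio of 0.45 (0.41 to 0.49). Gstm1 stood at 1095 and 565 CPM and Cyp3a25 at 547 and 296 CPM. Cyp2b10, with a ratio of 0.80, was not apart. In the vitamin A list 7 of 8 were lower, and Aldh1a1, which makes retinoic acid, and Lrat, which esterifies retinol, were apart at 0.65 and 0.50.

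Among 13 measured iron and mineral genes, 6 were higher and 7 lower in library 2, with a median log2 ratio of -0.16; 3 were apart, all lower. The median changed sign, to 0.049 with at most 10% mitochondrial UMIs and to 0.035 at an apolipoprotein share of 0.2 to under 0.5%. Fth1, the ferritin heavy chain, stood at 8002 and 5043 CPM. S100g had a ratio of 0.40 (0.35 to 0.46) and Slc40a1 of 0.53 (0.43 to 0.66). As given above, a single cell in each library held a large part of the S100g UMIs, which its counting interval does not cover. Reg1 stood at 6314 and 2518 CPM, a ratio of 0.40 (0.39 to 0.41), while Reg3b had a ratio of 0.70 and Reg3g of 1.25. Cd36 stood at 139 and 62.5 CPM, a ratio of 0.45 (0.37 to 0.54), the single fatty acid uptake gene apart. Pck1, Sgk1 and Dusp1 of the glucocorticoid-induced list were apart and lower, at 0.55, 0.55 and 0.59; 5 of its 7 measured genes were lower. Selenop, at 0.57, and Pck1 were lower in library 2. Both were higher at the high apolipoprotein share, where library 2 had more cells. The part of the share in these ratios was not tested.

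**Figure D4:**
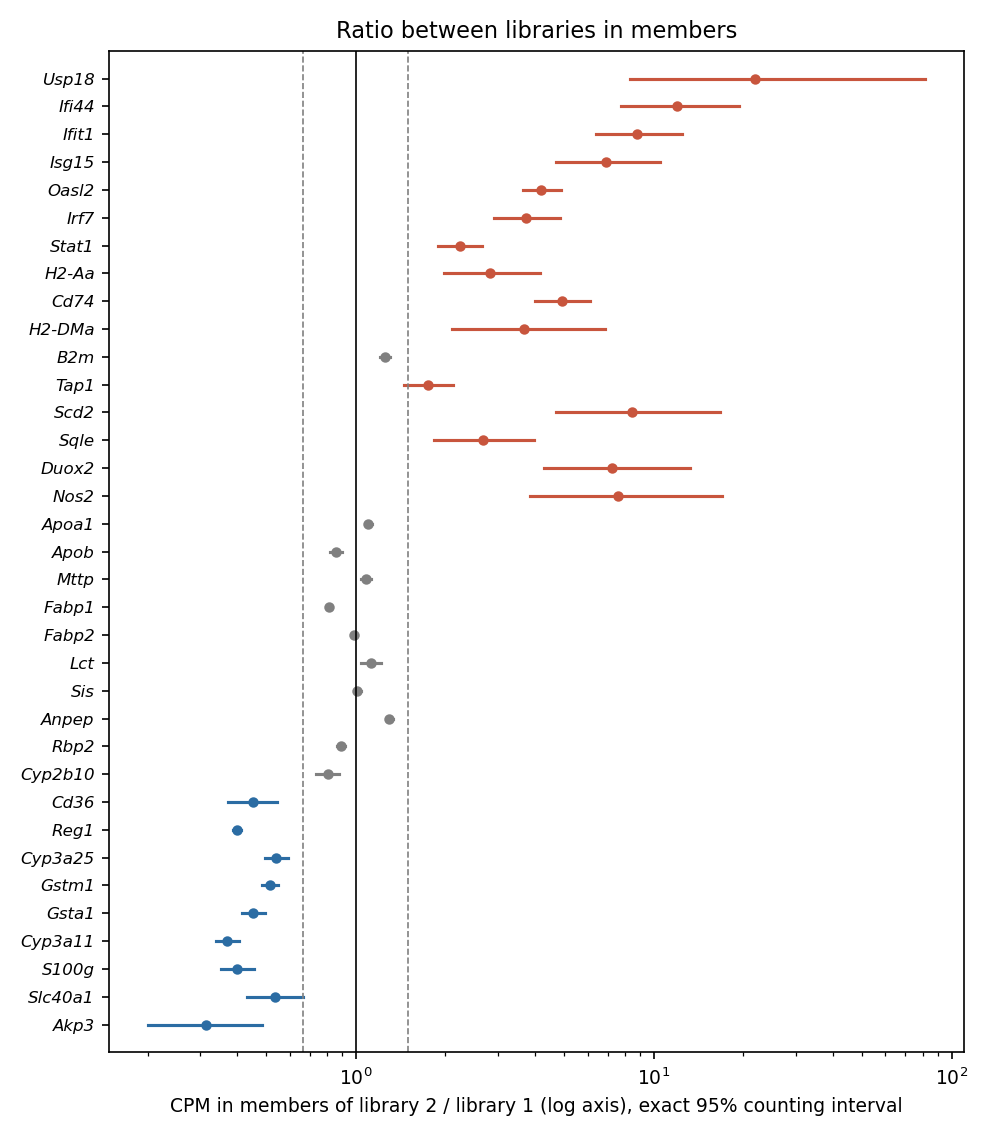
Ratio of CPM in members of library 2 to library 1 (log axis) for 35 genes, with exact 95% counting intervals; red and blue genes were called apart, grey ones were not, and dashed lines mark 1.5-fold. Interferon and MHC class II genes, Scd2 and Sqle lie to the right. Cyp3a11, Gsta1, Reg1, S100g and Akp3 lie to the left, and Apoa1, Apob, Lct and Sis near 1.

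Marker messages of goblet, Paneth and enteroendocrine cells stood higher in library 2 as well. All 7 measured goblet markers, 6 of 10 Paneth markers and all 3 measured enteroendocrine markers were apart. Of all genes measured, 4.54% were apart and higher in library 2. The lists include Clca1, Zg16, Fcgbp, Lyz1, Defa24, Chga and Chgb, whose levels the selection rule capped in these cells, so the counts are a description. The summed level of the goblet list was 816 and 1693 CPM in the enterocytes and 612 and 1246 CPM in lymphocytes. That of the Paneth list was 3275 and 5067 CPM against 6033 and 4125 CPM, and that of the enteroendocrine list 86.4 and 202 CPM against 64.6 and 158 CPM. Defa24, a Paneth defensin, was found in 95.8% and 99.5% of enterocytes and in 96.2% and 97.8% of lymphocytes thinned to 2000 UMIs. Gip, a hormone of enteroendocrine cells with a ratio of 13.6, had 54.7 CPM in the enterocytes and 58.9 CPM in lymphocytes of library 2. Their part in the other differences between libraries was not tested.

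**Figure D5:**
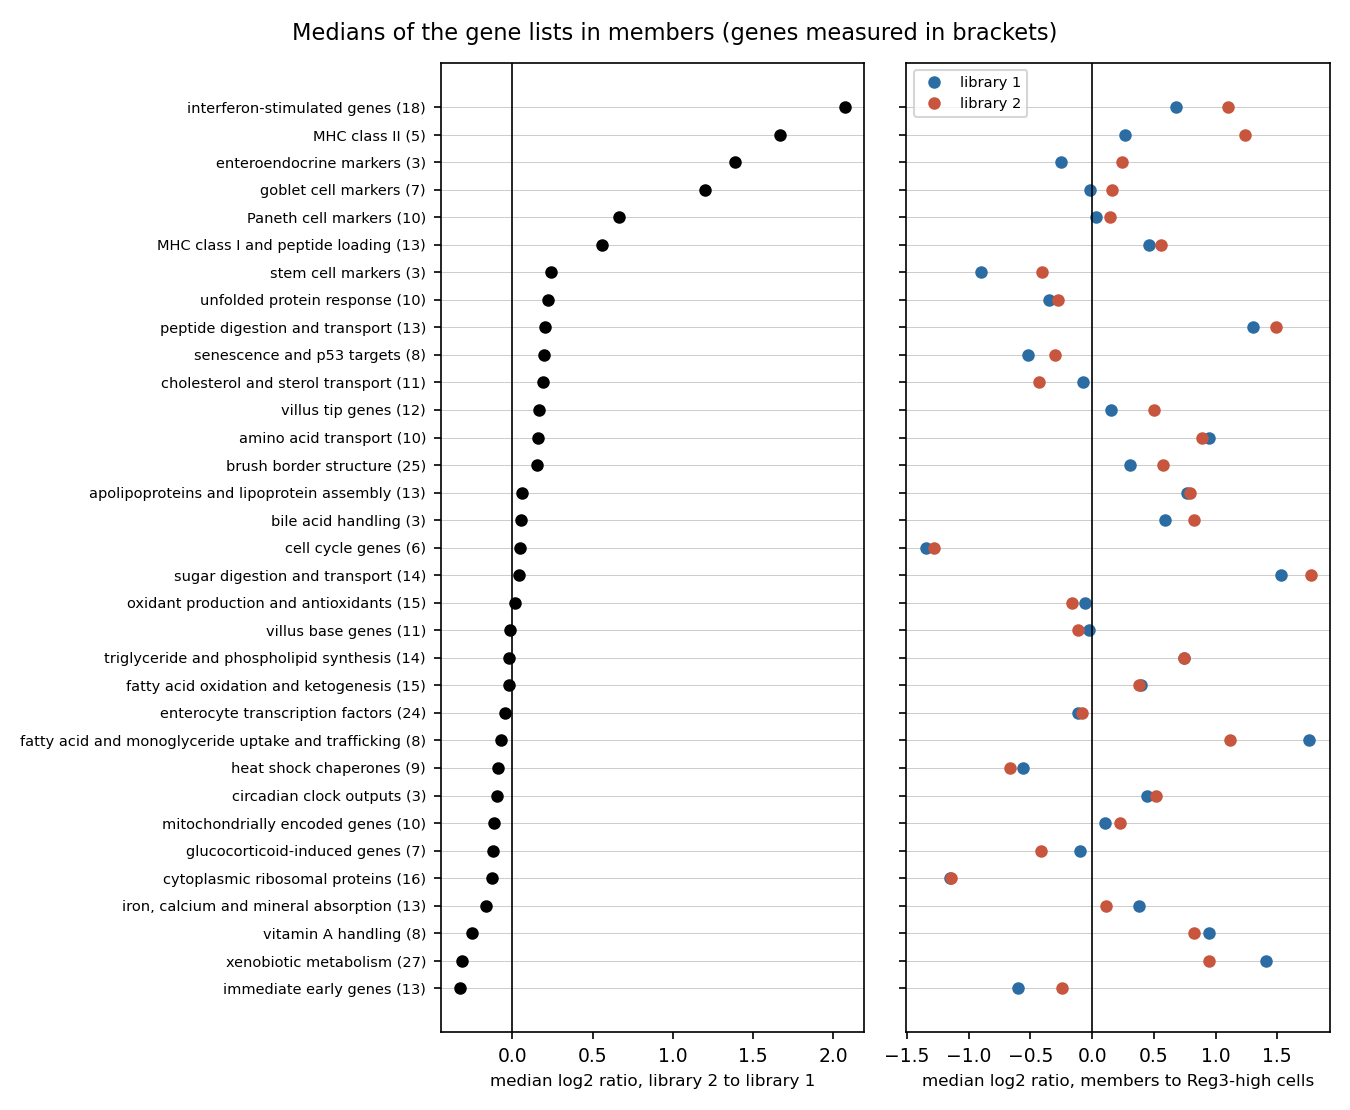
Median log2 ratio of each gene list in members, for library 2 to library 1 (left) and for members to Reg3-high cells in each library (right); brackets give the genes measured between libraries. Interferon genes (2.07) and MHC class II genes (1.67) lie highest on the left, and the sugar list (1.53 in library 1 and 1.77 in library 2) lies among the highest on the right.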

How the data were processed

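Droplet libraries of duodenal crypts were processed with Cell Ranger 2.1.1 and the mm10 build, per the submitters' processing notes; the authors deposited 1 matrix of raw UMI counts for 12756 barcodes (6310 and 6446 by ending) and 109193866 UMIs. Barcodes have 27 bases; the capture chemistry was not settled from the files. Rows with the same symbol were summed, and 99.5% of gene identifiers were in GENCODE M21 of the same build. Doublets were not called; the marker exclusions were the only guard against mixed cells.

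UMIs were summed over cells of a class in each library and scaled to CPM. Intervals are Clopper-Pearson for shares and exact conditional Poisson for ratios. With 1 library per condition no test was run. Members, lists (38 lists, 529 of 530 genes matched) and classes were chosen with earlier results of these data known. Genes were named as markers, by highest CPM overall or in a list, or as the 10 highest and 10 lowest of each contrast. The planned top range of 2% and over held 0 and 1 cells, so cells at 0.5% and over were used instead. The ratio method was run on simulated Poisson counts drawn from the mean levels of the cells. Such counts hold no variation between cells beyond counting error. The run therefore cannot show whether the intervals are wide enough for real cells. Python 3.11.15, numpy 2.4.6, scipy 1.17.1 and pandas 2.3.3 were used. Results of some list genes are not reported here.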

Additional observations from a re-analysis of the deposited data

Results flagged for a closer look

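Outside the cell filters, 785 barcodes (351 in library 1, 434 in library 2) met the apolipoprotein and exclusion rules, against 388 inside; 741 of them had over 25% mitochondrial UMIs. They were flagged because a signal appeared in data that the comparisons did not use. Their median was 3494 UMIs and 43.1% mitochondrial, against 12328 UMIs and 13.6% in the enterocytes analysed. Among UMIs outside mitochondrial genes, Apoa1 stood at 9299 and 9096 CPM, against 4863 and 5294 CPM inside the filters. Apoc3 stood at 2048 and 2011 CPM against 844 and 869 CPM, but Apoa4 at 312 and 253 CPM against 426 and 335 CPM. These genes chose the barcodes by their share of all UMIs. Leaving out mitochondrial UMIs raises such a share most where they are many, so nothing is read from these levels. Fabp1, which the rule did not use, stood at 2459 and 2151 CPM against 5982 and 4810 CPM. The nuclear RNA Malat1 stood at 6142 and 6024 CPM against 906 and 986 CPM. Cyp3a11 was again lower in library 2, at 933 and 408 CPM. The cause was not tested.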

How the results depend on the processing

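No paired analysis was possible because each condition has 1 library. The share of cells in libraries 1 and 2 was 7.0% and 9.85% at an apolipoprotein share of 0.1%, 1.73% and 3.35% at 0.5%, and 1.66% and 2.72% with at most 10% mitochondrial UMIs; library 2 had the larger share each time. Genes apart and higher in library 2 numbered 82 at 2-fold, 509 with no minimum of UMIs beyond 1, 148 with at most 10% mitochondrial UMIs, 166 and 136 within the ranges of 0.2 to under 0.5% and 0.5 to under 1% (chosen after seeing the data), and 46 after thinning. Genes lower numbered 17, 232 and 47 at 2-fold, with 1 UMI and after thinning. Along the apolipoprotein share, 194 and 307 genes were higher and lower at 1.5-fold, 18 and 11 with at most 10% mitochondrial UMIs, and 20 and 35 after thinning. Medians that changed sign were those of amino acid transport (-0.051 with at most 10% mitochondrial UMIs and -0.066 thinned), ribosomal proteins (0.21), iron and mineral genes (0.049) and the unfolded protein response (-0.037) with at most 10% mitochondrial UMIs, iron and mineral genes in the low range (0.035), and mitochondrially encoded (0.033) and villus tip genes (-0.027) thinned. Mki67 had a ratio of 0.65 thinned and Tap2 of 0.98 at 0.5 to under 1%. The causes were not tested. Fewer cells or UMIs lower the number of genes measured in the thinned and split settings. Depth limits genes under 100 UMIs over both libraries, which were not compared.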
